A study of Mus musculus with 4 samples.

Results

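Fc receptor genes encode proteins with which immune cells read the constant part of antibodies, or a chain through which such receptors signal. Fc receptor-like genes encode relatives of these receptors. The set described here holds 10 of the 41214 genes in the count table, taken by symbol: *Fcgr1*, *Fcgr2b*, *Fcgr3*, *Fcgr4*, *Fcer1g*, *Fcgrt*, *Fcrl1*, *Fcrl5*, *Fcrla* and *Fcmr*. They were read in unstimulated B220+ splenocytes, with 2 RNA-seq libraries from MIZ-1WT mice and 2 from MIZ-1△POZ mice (written DPOZ in the labels). MIZ-1△POZ stands for Mb1Cre x Miz-1floxPOZ mice on a C57BL/6 background, in which Cre is driven by the *Cd79a* (Mb1) promoter and removes the POZ domain of the transcription factor MIZ-1 in B cells, while other cells of the spleen keep the intact gene. The labels give the controls as WT, without stating whether they carry Mb1Cre, and give no age or sex, and the study's methods give an age range of young adult mice for all its animals. B220+ cells were taken by positive selection with beads. The labels number the libraries as replicates, and the study's methods call them a biological duplicate with 2 biological replicates. Neither says that each library is a separate mouse, so the p-values measure the spread between these libraries.

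As background, Fc receptors pair recognition of IgG with signals of opposite sign. FcγRIIB, encoded by *Fcgr2b*, carries an inhibitory motif (ITIM) and dampens the B cell receptor when both bind the same immune complex. The activating receptors FcγRI, FcγRIII and FcγRIV signal through the common γ chain, the product of *Fcer1g*, which carries an activating motif (ITAM), and serve phagocytosis by macrophages and other myeloid cells. FcRn, encoded by *Fcgrt*, binds IgG inside many cell types and recycles it. Fc receptor-like proteins are relatives that are found largely on B cells, and *Fcmr* encodes a receptor for IgM. By these roles *Fcgr2b*, *Fcrl1*, *Fcrl5*, *Fcrla* and *Fcmr* are called the B cell members below, *Fcgr1*, *Fcgr3*, *Fcgr4* and *Fcer1g* the myeloid members, and *Fcgrt* is broadly expressed. *Fcgr2b* is also used by myeloid cells.

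Some facts of the whole series bear on all values below. The libraries held between 43026814 and 46387209 counts on genes. The share of reads that the counting assigned to no gene feature separated the genotypes. It was 27.2% and 25.5% for MIZ-1WT against 21.6% and 21.1% for MIZ-1△POZ, and its part in the results was not tested. *Zbtb17*, which encodes MIZ-1, was at 47.1 ± 1.09 CPM (counts per 1000000 counts on genes, after scaling of library size) in MIZ-1WT and 37.7 ± 0.533 CPM in MIZ-1△POZ (SD, n = 2), but its gene count includes the exons that are not deleted and does not check the genotype. *Xist* had 49 and 60 counts in MIZ-1WT and 38145 and 40838 in MIZ-1△POZ, and the 4 Y-linked genes read were lower in MIZ-1△POZ by log2 fold changes from -4.66 to -4.29. Sex and genotype therefore cannot be told apart for any member.

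All 10 members passed the filter of at least 10 counts in at least 2 libraries, the lowest member count being 174. The 4 myeloid members were 3.27-fold to 4.45-fold higher in MIZ-1△POZ, *Fcrl5* was 1.85-fold higher and *Fcgrt* was 1.70-fold higher. *Fcgr2b*, *Fcrl1*, *Fcrla* and *Fcmr* were lower, by log2 fold changes from -0.44 to -0.28. In the quasi-likelihood (QL) test of edgeR, adjusted by the Benjamini-Hochberg method over all 14554 tested genes, 6 members were called higher and 4 lower, where 21.1% of all tested genes were called higher, 18.9% lower and 40.0% in either direction. For each of the 10 members the libraries of the genotypes did not overlap. This was also so for 37.2% of all tested genes in the higher direction and 37.6% in the lower. Levels are given as CPM, with library totals scaled by TMM factors, and as RPKM, the same divided by exon length in kilobases, for comparisons between genes.

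Most members lie in 2 clusters. On chromosome 1 of GRCm38, *Fcrla* (ENSMUSG00000038421, 170917576 to 170927583), *Fcgr2b* (ENSMUSG00000026656, 170958617 to 170976547), *Fcgr4* (ENSMUSG00000059089, 171018920 to 171029761), *Fcgr3* (ENSMUSG00000059498, 171051174 to 171064935) and *Fcer1g* (ENSMUSG00000058715, 171229572 to 171234365) lie within 317 kb. This cluster of 5 held 2 members that were lower and 3 that were higher. On chromosome 3, *Fcrl1* (ENSMUSG00000059994, 87376387 to 87402934) and *Fcrl5* (ENSMUSG00000048031, 87435773 to 87500678) lie within 124 kb, and they differed from each other in direction. *Fcgr1* (ENSMUSG00000015947) stands apart on chromosome 3 from 96282909 to 96293969, *Fcmr* (ENSMUSG00000042474) on chromosome 1 from 130865669 to 130880791, and *Fcgrt* (ENSMUSG00000003420) on chromosome 7 from 45092990 to 45103851.

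Stretches upstream of 6 members are shown because they let members that moved in opposite directions be read side by side. Each runs 5′ to 3′ on the gene's own strand over at most 120 bases before the RefSeq start (GRCm38.p6), less any base that GENCODE places in an exon. Capitals mark the letters GAGGAA on either strand, the core of the PU box that PU.1, a factor of myeloid and B cells, is known to bind.
Fcgr1, chr3:96293970-96294089, minus strand: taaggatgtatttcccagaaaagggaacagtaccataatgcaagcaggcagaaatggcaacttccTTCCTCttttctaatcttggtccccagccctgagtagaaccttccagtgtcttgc
Fcgr3, chr1:171059404-171059523, minus strand: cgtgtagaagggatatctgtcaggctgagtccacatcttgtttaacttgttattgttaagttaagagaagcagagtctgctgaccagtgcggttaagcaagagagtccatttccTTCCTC
Fcgr4, chr1:171018806-171018919, plus strand: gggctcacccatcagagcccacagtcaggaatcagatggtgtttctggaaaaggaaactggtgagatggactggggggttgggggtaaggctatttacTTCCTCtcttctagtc
Fcrl1, chr3:87376267-87376386, plus strand: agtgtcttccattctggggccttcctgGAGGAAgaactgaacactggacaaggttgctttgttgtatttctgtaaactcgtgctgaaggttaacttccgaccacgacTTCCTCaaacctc
Fcrla, chr1:170927584-170927703, minus strand: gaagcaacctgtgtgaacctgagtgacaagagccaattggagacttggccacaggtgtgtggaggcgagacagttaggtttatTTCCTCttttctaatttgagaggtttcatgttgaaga
Fcrl5, chr3:87435662-87435772, plus strand: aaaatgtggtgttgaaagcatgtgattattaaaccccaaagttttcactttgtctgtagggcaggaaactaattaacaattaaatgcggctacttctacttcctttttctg

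The hexamer was found in the windows of *Fcgr1*, *Fcgr3*, *Fcgr4* and *Fcrla*, with 1 match each, and of *Fcrl1*, with 2 matches. Of 32851 RefSeq promoter windows of 120 bases, 11.6% held it, but unlike those of the members these windows were not cut at exons. Members with a match thus include 3 that were higher and 2 that were lower. The letters are not in the windows of *Fcrl5*, *Fcer1g* and *Fcgrt*. Those of the EBF1 core, CCCNNGGG, present in 6.39% of the promoters, and of the octamer, ATGCAAAT, present in 0.791%, were in none of the 8 windows searched, on either strand. The windows of *Fcgr2b* and *Fcmr* were not used because GENCODE exons cover all or nearly all of them, and the *Fcgr3* window lies inside the longer GENCODE gene. A match of letters is a description of the sequence and not a bound site.

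Per length of transcript, *Fcmr* was the highest member in MIZ-1WT with a mean of 349.1 RPKM, ahead of *Fcrla* with 233.8, *Fcrl1* with 96.1, *Fcgr2b* with 34.7, *Fcgrt* with 22.4 and *Fcrl5* with 16.3. The myeloid members came last, with mean levels of 8.92 RPKM for *Fcgr3*, 8.70 for *Fcer1g*, 6.70 for *Fcgr4* and 1.80 for *Fcgr1*. Within this order *Fcgr3* and *Fcer1g* overlapped in their libraries, as did *Fcer1g* and *Fcgr4*, and all other neighbours were separate. In MIZ-1△POZ the top 3 and the last place were unchanged. The places between them were taken by *Fcgrt* (mean 37.9 RPKM), *Fcgr3* (33.6), *Fcrl5* (30.2), *Fcgr4* (29.7), *Fcer1g* (28.5) and *Fcgr2b* (27.5), and each of the first 5 of these overlapped in its libraries with the next.

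**Figure D1:**
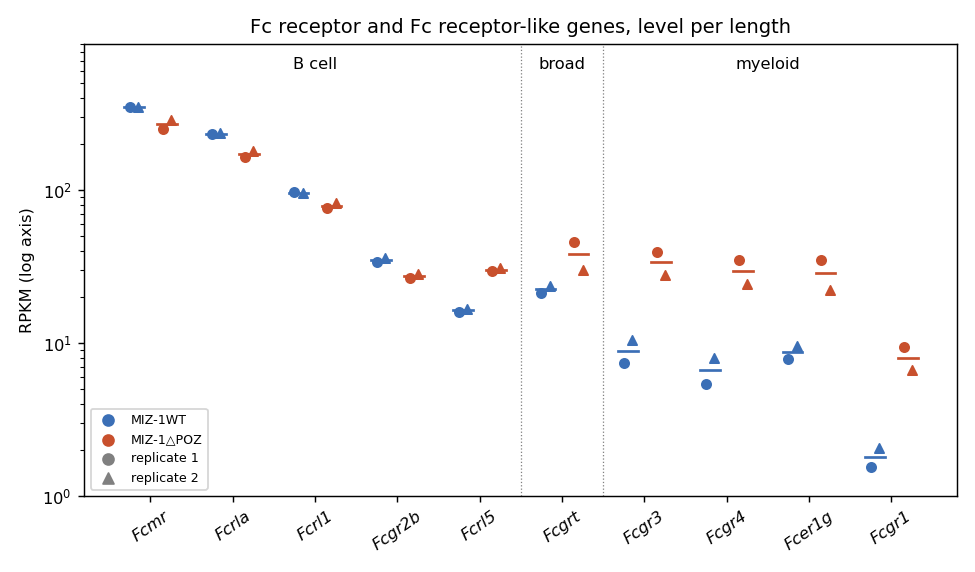
RPKM on a log axis for each member in the 4 libraries, grouped as B cell, broadly expressed and myeloid members. Points are libraries and short lines are genotype means. The myeloid members lie between 1.54 and 10.4 RPKM in MIZ-1WT and between 6.62 and 39.5 RPKM in MIZ-1△POZ.

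Among the B cell members, the inhibitory receptor gene *Fcgr2b* had 8517 and 8680 counts in MIZ-1WT and 7350 and 7219 in MIZ-1△POZ. This gave 195.3 and 206.5 CPM against 154.4 and 164.5 CPM, with both MIZ-1△POZ libraries below both MIZ-1WT libraries. The means were 200.9 ± 7.97 and 159.5 ± 7.11 CPM (SD, n = 2). *Fcgr2b* thus had a log2 fold change of -0.33 (95% interval -0.47 to -0.20), with an adjusted p of 0.00729 from the edgeR QL test. Without MIZ-1WT replicate 2 it was -0.29, with an adjusted p of 0.0591 from the same edgeR test. Of all 50-base windows of its transcripts, 6.95% also occur in another gene, among them 166 that *Fcgr3* shares.

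*Fcmr*, the IgM receptor gene, had 26387 and 25523 counts in MIZ-1WT and 20749 and 21900 in MIZ-1△POZ, or 604.9 and 607.3 against 436.0 and 499.0 CPM. The MIZ-1WT libraries were nearly equal and both stood above the MIZ-1△POZ libraries. Its log2 fold change was -0.37 (95% interval -0.55 to -0.19), with an adjusted p of 0.0119 from the edgeR QL test. Leaving out MIZ-1WT replicate 1 or replicate 2 gave adjusted p-values of 0.0698 and 0.0646 from edgeR, at log2 fold changes of -0.38 and -0.37.

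*Fcrla* encodes a relative of the Fc receptors that stays inside the B cell and binds immunoglobulin there. Its counts were 17600 and 17341 in MIZ-1WT and 13657 and 13809 in MIZ-1△POZ, or 403.5 and 412.6 against 286.9 and 314.6 CPM. It had the largest decrease of the members, a log2 fold change of -0.44 (95% interval -0.59 to -0.29; adjusted p = 0.00391 from the edgeR QL test). The call held without any of the 4 libraries, with log2 fold changes from -0.49 to -0.37.

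*Fcrl1*, a surface protein of B cells with an activating tail, had 15061 and 14241 counts in MIZ-1WT and 12839 and 12820 in MIZ-1△POZ. Its levels were 345.3 and 338.8 CPM against 269.8 and 292.1 CPM, again without overlap. Its difference was -0.28 on the log2 scale (95% interval -0.42 to -0.15; adjusted p = 0.0116 from the edgeR QL test). Without MIZ-1WT replicate 1 or replicate 2 the adjusted p was 0.0840 and 0.0627 from edgeR, at log2 fold changes of -0.27 and -0.30.

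*Fcrl5* was the exception among the B cell members. It encodes a surface protein with both activating and inhibitory motifs that in mice marks marginal zone and B-1 cells. Its counts were 2432 and 2431 in MIZ-1WT and 4857 and 4740 in MIZ-1△POZ, or 55.8 and 57.8 against 102.1 and 108.0 CPM. Replicates differed little and the genotypes stood far apart, with means of 56.8 ± 1.48 and 105.0 ± 4.21 CPM (SD, n = 2). The log2 fold change was 0.89 (95% interval 0.75 to 1.02), with an adjusted p of 0.000764 from the edgeR QL test, and it lay between 0.86 and 0.94 when any library was left out. By p, *Fcrl5* held place 97 of the 14554 tested genes. The ratio of *Fcrl5* to its neighbour *Fcrl1*, in RPKM, was 0.165 and 0.175 in MIZ-1WT and 0.387 and 0.378 in MIZ-1△POZ.

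Markers of B cell subsets moved beside these members. All marker lists were drawn up with earlier results of these data known, and 21.1% of all tested genes were called higher and 18.9% lower. All 9 marginal zone B cell markers were called higher (median log2 fold change 0.67), among them *Cr2* (complement receptor 2, 0.25), *Plac8* (0.47) and *Dtx1* (a regulator of Notch signaling, 0.65). Of these 3, *Cr2* was not called without MIZ-1WT replicate 1, MIZ-1WT replicate 2 or MIZ-1△POZ replicate 2. Their summed level was 3334 and 3315 CPM in MIZ-1WT and 4235 and 4541 CPM in MIZ-1△POZ. The 8 B-1 cell markers had a median of 0.78. Not called were *Spn* (0.10, adjusted p = 0.264 from edgeR) and *Cd5* (0.26, adjusted p = 0.469), the latter named after its values were seen. The other 6 were called higher, among them *Anxa2* (1.26) and *Ahr* (0.98). The summed level of the 8 markers went from 109.8 and 119.3 to 187.6 and 165.1 CPM. Without either MIZ-1WT library 3 of them were called. Of 7 follicular B cell markers, 5 were called lower, with *Icosl* at -0.29, and 2 were not called, among them *Cxcr5* (-0.04, adjusted p = 0.492 from edgeR). Without MIZ-1WT replicate 2, 3 were called lower, and *Icosl* was not called without either MIZ-1WT library or with pan-B cell scaling. Their summed level was 2333 and 2440 CPM in MIZ-1WT and 1793 and 1924 CPM in MIZ-1△POZ. The part of these marker changes in the values of the B cell members was not tested, and in bulk libraries fewer cells of a type and less RNA per cell cannot be told apart.

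The pan-B cell markers were lower as a group, with 8 of 11 called lower, none higher, and a median log2 fold change of -0.25, where the median of all tested genes was -0.01. *Ms4a1*, the gene of CD20, was at -0.23 (adjusted p = 0.0365 from edgeR), whereas *Cd74*, the most abundant of them, was at -0.07 and was not called (adjusted p = 0.507). Without either MIZ-1WT library 3 of the 11 were called lower, and *Ms4a1* was not called without any 1 of the 4 libraries. Their sum was 17940 and 18060 CPM in MIZ-1WT and 15240 and 16170 CPM in MIZ-1△POZ. Relative to this sum, *Fcgr2b* stood at 1.09% and 1.14% in MIZ-1WT and 1.01% and 1.02% in MIZ-1△POZ, and *Fcrl1* at 1.92% and 1.88% against 1.77% and 1.81%. *Fcrla* stood at 2.25% and 2.29% against 1.88% and 1.95%, and *Fcmr* at 3.37% and 3.36% against 2.86% and 3.09%. *Fcrl5* went from 0.311% and 0.320% to 0.670% and 0.668%. On this scale each of the 5 kept its direction without overlap, and the differences of the 4 lower members were smaller than in CPM.

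With library sizes scaled to the pan-B cell sum, which moved the median log2 fold change of all tested genes to 0.19, the decreases of *Fcgr2b* (-0.14, adjusted p = 0.108 from edgeR), *Fcrl1* (-0.09, adjusted p = 0.254) and *Fcmr* (-0.18, adjusted p = 0.0528) were no longer called. Those of *Fcrla* (-0.24, adjusted p = 0.0124 from edgeR) and the increase of *Fcrl5* (1.08, adjusted p = 0.000109) still were. Among all genes this scaling called 5038 higher and 934 lower, against 3076 and 2746 with TMM.

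**Figure D2:**
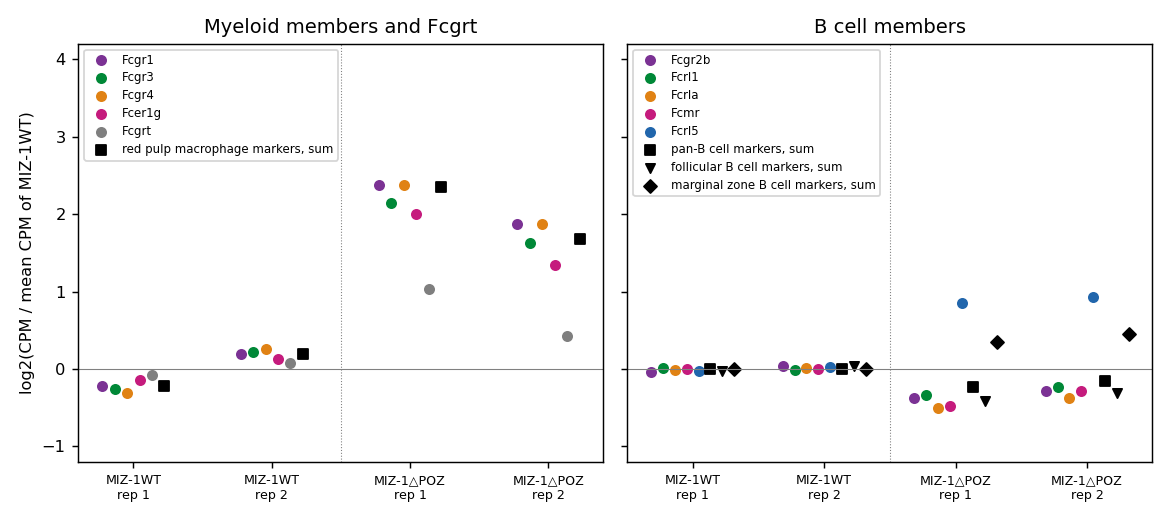
Level of each member and of summed markers in each library, as log2 of CPM over the mean CPM of MIZ-1WT, with myeloid members and Fcgrt on the left and B cell members on the right. Each point is a library value, and points are shifted sideways within a library for legibility. In MIZ-1△POZ the 4 myeloid members lie close to the square for the red pulp macrophage sum and Fcgrt lies below it. Fcrl5 is the B cell member above 0, on the side of the marginal zone markers.

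The myeloid members were higher in MIZ-1△POZ and shared a profile over the libraries. *Fcgr1*, the gene of the high-affinity IgG receptor FcγRI, had 174 and 224 counts in MIZ-1WT and 1155 and 752 in MIZ-1△POZ. Its levels were 3.99 and 5.33 CPM against 24.3 and 17.1 CPM. MIZ-1△POZ replicate 1 was the highest library and MIZ-1WT replicate 1 the lowest. The log2 fold change was 2.15 (95% interval 1.61 to 2.69), with an adjusted p of 0.00196 from the edgeR QL test.

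*Fcgr4*, the gene of FcγRIV, had 295 and 423 counts in MIZ-1WT and 2088 and 1348 in MIZ-1△POZ. In CPM this was 6.76 and 10.1 against 43.9 and 30.7, in the same order of libraries as *Fcgr1*. The log2 fold change was 2.15 (95% interval 1.55 to 2.75; adjusted p = 0.00249 from the edgeR QL test). The ratio of *Fcgr4* to *Fcgr1* in RPKM was 3.50 and 3.89 in MIZ-1WT and 3.73 and 3.70 in MIZ-1△POZ, so the genotypes overlapped in this ratio.

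*Fcgr3*, the gene of the activating low-affinity receptor FcγRIII, had 564 and 758 counts in MIZ-1WT and 3267 and 2109 in MIZ-1△POZ. In CPM this was 12.9 and 18.0 against 68.6 and 48.1. The difference was 1.92 on the log2 scale (95% interval 1.37 to 2.46; adjusted p = 0.00265 from the edgeR QL test). *Fcgr3* moved opposite to *Fcgr2b*, with which it shares sequence: 9.58% of its 50-base windows occur in another gene, all in *Fcgr2b*. How the counting treated read pairs from those windows is not given in the sources used here beyond the separate class of reads without a unique alignment.

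*Fcer1g* had 301 and 349 counts in MIZ-1WT and 1448 and 847 in MIZ-1△POZ, or 6.90 and 8.30 against 30.4 and 19.3 CPM. Its log2 fold change was 1.71 (95% interval 1.14 to 2.28; adjusted p = 0.00412 from the edgeR QL test). The order of the libraries was that of the receptor genes whose products its product joins. In RPKM, its ratio to *Fcgr3* was 1.06 and 0.915 in MIZ-1WT and 0.880 and 0.798 in MIZ-1△POZ, lower in both MIZ-1△POZ libraries. All 4 myeloid members were called when any library was left out, with log2 fold changes from 1.35 to 2.46 over these fits.

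The replicates of each genotype differed together in these genes. On the log2 scale MIZ-1△POZ replicate 1 exceeded replicate 2 by 0.50 for *Fcgr1*, 0.51 for *Fcgr3*, 0.51 for *Fcgr4* and 0.66 for *Fcer1g*. MIZ-1WT replicate 2 exceeded replicate 1 by 0.42, 0.48, 0.57 and 0.27 in the same order. In the B cell members MIZ-1△POZ replicate 1 was the lower of the pair, by log2 differences from -0.19 for *Fcmr* to -0.08 for *Fcrl5*.

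Markers listed for red pulp macrophages, large phagocytes of the spleen, showed the same order of libraries. The list is not specific to these cells. *Csf1r*, *Mertk*, *Axl* and the C1q genes in it are used by macrophages at large, and *Marco* by those of the marginal zone. All 16 were detected in every library and all 16 were called higher, with log2 fold changes from 1.60 to 2.67 and a median of 1.98. Named by level they were led by *Vcam1* (an adhesion molecule, 1.98), *Slc40a1* (the iron exporter, 2.54) and *Mrc1* (the mannose receptor, 2.02). Their summed level was 972.4 and 1299 CPM in MIZ-1WT and 5814 and 3631 CPM in MIZ-1△POZ. MIZ-1△POZ replicate 1 thus held 1.60 times the sum of replicate 2. As Cre is driven by a B cell promoter, macrophages of MIZ-1△POZ mice are outside the cells meant to be deleted, and the part of macrophage RNA in the values of the myeloid members was not tested.

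Set against that sum, the myeloid members differed less between the genotypes. *Fcgr1* was 0.410% and 0.410% of the summed red pulp macrophage CPM in MIZ-1WT and 0.417% and 0.472% in MIZ-1△POZ. *Fcgr3* was 1.33% and 1.39% against 1.18% and 1.32%. *Fcgr4* was 0.696% and 0.775% against 0.755% and 0.846%, with overlap between the genotypes. *Fcer1g* was 0.710% and 0.639% in MIZ-1WT and 0.523% and 0.532% in MIZ-1△POZ, lower in both libraries. As ratios of the genotype means these shares went from 0.782 for *Fcer1g* to 1.09 for *Fcgr4*, where the CPM themselves differed by more than 3-fold.

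The lists for other myeloid and for lymphoid cells given here, all shorter than the macrophage list, had lower summed levels than it in each library. In MIZ-1WT *Ms4a4c*, listed as a monocyte marker, still stood above every macrophage marker. Its mean was 369.9 CPM, against 305.3 CPM for *Vcam1*, the highest of them. *Ccr2*, the next highest monocyte marker, had a mean of 19.9 CPM. In MIZ-1△POZ *Ms4a4c* was at 269.7 and 286.1 CPM, with replicate 1 the lower, as in the B cell members. Which cells its counts come from was not tested. Of 9 monocyte markers 5 were called higher and 1 lower, with a median log2 fold change of 1.89. Their sum, 402.4 and 441.9 CPM against 415.2 and 430.2 CPM, is mostly *Ms4a4c*, the marker called lower (-0.41). Without it the other 8 summed to 53.6 and 50.9 CPM in MIZ-1WT and 145.5 and 144.1 CPM in MIZ-1△POZ. The near-equal MIZ-1△POZ sums join opposite orders of libraries. *Treml4* was at 87.3 and 53.2 CPM in replicates 1 and 2, the order of the myeloid members. The rest of the 8 were higher in replicate 2, such as *Ccr2* (18.4 and 28.9 CPM) and *F13a1* (2.35 and 10.8 CPM). Without either MIZ-1WT library 3 monocyte markers were called higher, and without MIZ-1△POZ replicate 1, 8 were. Of 9 conventional dendritic cell markers 5 were called higher (2 without MIZ-1WT replicate 1) and 1 lower (2 without MIZ-1△POZ replicate 1), with sums of 40.7 and 41.6 against 71.9 and 53.5 CPM. Of 12 neutrophil markers 9 were tested and 3 called higher (1 without MIZ-1WT replicate 1 or MIZ-1△POZ replicate 2), and *Elane* was at 0 counts in both MIZ-1WT libraries. Of 9 NK cell markers, a cell type that also uses *Fcgr3* and *Fcer1g*, 2 were called higher (1 without MIZ-1WT replicate 1, MIZ-1WT replicate 2 or MIZ-1△POZ replicate 1), with sums of 62.7 and 59.4 against 65.7 and 72.3 CPM. Of 9 plasmacytoid dendritic cell markers 2 were called higher, of 12 T cell markers 2, and of 7 plasma cell markers 5, with none of these lists holding a marker called lower. Without MIZ-1△POZ replicate 1, 3 plasmacytoid markers were called lower, and without replicate 2, 1 plasma cell marker was. Of 7 mast cell and basophil markers 2 were tested and neither was called.

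*Fcgrt*, the gene of the FcRn heavy chain, had 1934 and 2089 counts in MIZ-1WT and 4579 and 2768 in MIZ-1△POZ. In CPM this was 44.3 and 49.7 against 96.2 and 63.1, so that MIZ-1△POZ replicate 1 stood well above all others. The means were 47.0 ± 3.80 and 79.6 ± 23.4 CPM (SD, n = 2). The log2 fold change was 0.76 (95% interval 0.28 to 1.24), with an adjusted p of 0.0270 from the edgeR QL test. Without MIZ-1WT replicate 1 or replicate 2 the adjusted p was 0.138 and 0.0859 from edgeR, at log2 fold changes of 0.68 and 0.84. Without MIZ-1△POZ replicate 1 the log2 fold change fell to 0.43 and was still called, and without replicate 2 it was 1.05. Relative to the summed red pulp macrophage CPM, *Fcgrt* stood at 4.56% and 3.83% in MIZ-1WT and 1.66% and 1.74% in MIZ-1△POZ, the opposite direction to its CPM. That sum was itself 4.16-fold higher in MIZ-1△POZ, and any gene that rose less than the sum falls as a share of it.

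FcRn works as a pair with β2-microglobulin, and its traffic uses Rab proteins. Of 6 such genes 5 were tested, where 40.0% of all tested genes were called in either direction. *B2m* was called higher (log2 fold change 0.28, adjusted p = 0.0216 from the edgeR QL test) and *Rab11a*, of recycling endosomes, lower (-0.22, adjusted p = 0.0230). The list's median was 0.05. The call of *Rab11a* was lost without any 1 of the 4 libraries and with pan-B cell scaling (-0.02), and that of *B2m* without either MIZ-1WT library (adjusted p = 0.0612 without replicate 1 and 0.128 without replicate 2, from edgeR).

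**Figure D3:**
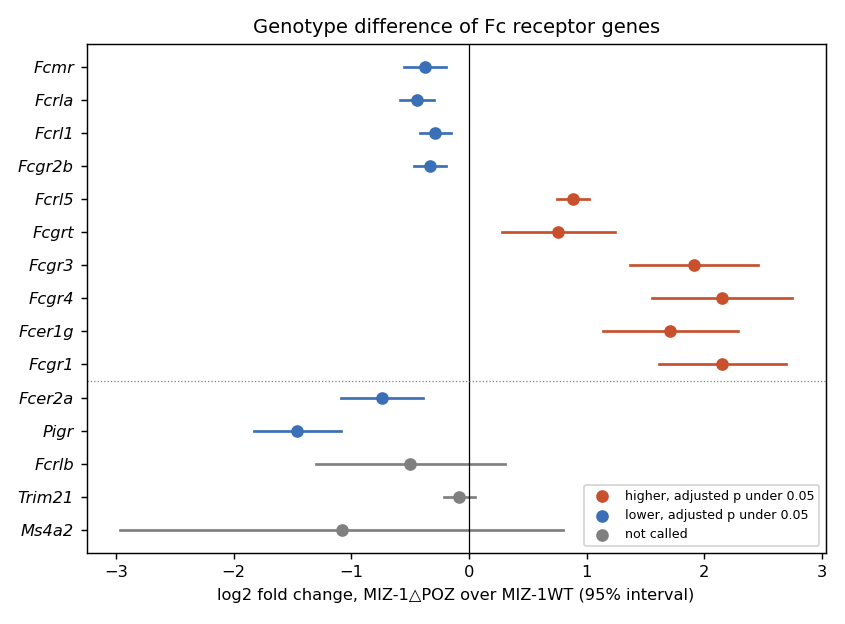
Log2 fold change, MIZ-1△POZ over MIZ-1WT, with 95% intervals from the edgeR fit for the 10 members and, under the dotted line, 5 other tested Fc receptor genes. Colours give the call at an adjusted p of 0.05. The myeloid members lie from 1.71 to 2.15, Fcrl5 at 0.89 and Fcgrt at 0.76, and the other B cell members from -0.44 to -0.28.

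The balance of inhibitory and activating IgG receptor transcripts in the libraries differed between the genotypes. Of the summed RPKM of *Fcgr1*, *Fcgr2b*, *Fcgr3* and *Fcgr4*, *Fcgr2b* made up 70.1% and 63.6% in MIZ-1WT and 24.1% and 32.6% in MIZ-1△POZ. As a ratio to the sum of the 3 activating receptor genes, *Fcgr2b* went from 2.35 and 1.74 to 0.318 and 0.484. Most of this difference lay in the activating genes, since *Fcgr2b* RPKM itself was 33.7 and 35.7 against 26.7 and 28.4. These are ratios over all cells of a library, not within a cell.

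**Figure D4:**
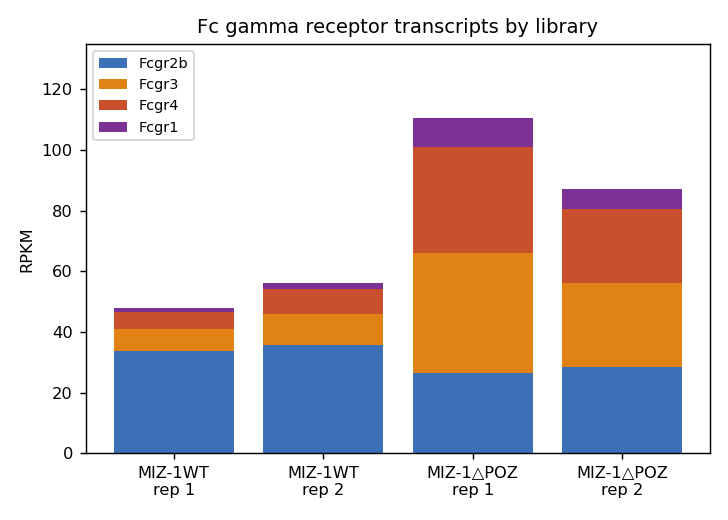
Stacked RPKM of the 4 Fc gamma receptor genes in each library. Blue, the inhibitory Fcgr2b, takes 70.1% and 63.6% of the bars in MIZ-1WT and 24.1% and 32.6% in MIZ-1△POZ.

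Beyond the 10 members, 9 other genes of Fc receptors and their relatives were looked up, and 5 had enough counts to be tested. *Fcer2a*, which encodes the low-affinity IgE receptor CD23 of follicular B cells and is also 1 of the 7 follicular markers, had 10372 and 10385 counts in MIZ-1WT and 5853 and 7363 in MIZ-1△POZ. It was lower with a log2 fold change of -0.74 (adjusted p = 0.0109 from the edgeR QL test). Without MIZ-1WT replicate 1 or replicate 2 its adjusted p was 0.0569 and 0.0585 from edgeR, at -0.77 and -0.71. *Pigr*, the carrier of polymeric immunoglobulin across epithelia, was lower too, with 557 and 432 against 207 and 177 counts (-1.46, adjusted p = 0.00199 from edgeR). No call was made for *Trim21*, a cytosolic antibody receptor (-0.08, adjusted p = 0.278), for *Fcrlb* (-0.50, adjusted p = 0.268), or for *Ms4a2*, the β chain of the IgE receptor of mast cells (-1.08, adjusted p = 0.301), the latter 2 at 21 counts or fewer per library. *Fcer1a*, *Fcamr*, *Fcrl6* and *Fcrls* had at most 7 counts in any library and were not tested.

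Signals from these receptors run through shared proteins, which were read from lists drawn up by pathway with earlier results of these data known. The share over all tested genes, to be read beside each list count, was 21.1% called higher and 18.9% lower. Among 12 inhibitory phosphatases, kinases and adaptors that work around ITIM receptors such as FcγRIIB, 1 was called higher and 6 lower, with a median log2 fold change of -0.13. *Ptpn6*, the phosphatase SHP-1, was at 1317 and 1310 CPM in MIZ-1WT and 938.8 and 943.4 CPM in MIZ-1△POZ (-0.48, adjusted p = 0.00202 from the edgeR QL test). *Dok3*, an inhibitory adaptor, was lower by a similar amount (-0.50, adjusted p = 0.00397), and *Inppl1*, the phosphatase SHIP2, was higher (0.46, adjusted p = 0.0150). *Inpp5d*, the phosphatase SHIP1 that FcγRIIB recruits, was named after its values were seen, and was at -0.19 (adjusted p = 0.0285). Without either MIZ-1WT library 3 genes of the list were called lower, with *Ptpn6* and *Dok3* among them, and none higher. Without MIZ-1△POZ replicate 2, 3 were called higher, and with pan-B cell scaling 4. *Inpp5d* lost its call without either MIZ-1WT library or MIZ-1△POZ replicate 1 and stood at 0.00 with pan-B cell scaling.

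Among 21 ITAM kinases and adaptors 4 were called higher and 6 lower (median -0.06). *Lcp2* (the adaptor SLP-76, 1.61, adjusted p = 0.000981 from edgeR) and *Gab2* (an adaptor of activating Fc receptors, 1.72, adjusted p = 0.00444) led those higher, and both were at under 10 CPM in MIZ-1WT. *Btk* (-0.40, adjusted p = 0.00822) and *Syk* (-0.23, adjusted p = 0.0219), kinases of the B cell receptor and of the γ chain, led those lower. None of the 21 was called lower without either MIZ-1WT library, *Btk* then having adjusted p-values of 0.0550 and 0.0581 and *Syk* of 0.0779 and 0.126 from edgeR. Without MIZ-1△POZ replicate 1, 2 were called lower, and with pan-B cell scaling 1, and *Syk* was not called in either. Of 6 chains that carry or partner such motifs, *Tyrobp* (DAP12, 0.85, adjusted p = 0.00647) and *Hcst* (DAP10, 0.79, adjusted p = 0.00507) were higher. *Cd79a* (-1.44, adjusted p = 0.00157 from edgeR) and *Cd79b* (-0.23, adjusted p = 0.0277), the signaling chains of the B cell receptor, were lower. The call of *Cd79b* was lost without either MIZ-1WT library, without MIZ-1△POZ replicate 1 and with pan-B cell scaling (-0.03), and that of *Tyrobp* without MIZ-1WT replicate 1 (adjusted p = 0.0524 from edgeR). *Cd79a* is also the gene whose promoter drives Cre in these mice. The paper, which also required a minimum fold change, reports *Cd79a* but not *Cd79b* as downregulated. At the protein level it found neither chain reduced in MIZ-1△POZ cells.

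The partners of immune complexes and complement had the highest median among the pathway lists, 1.18, with 10 of 14 called higher and 2 lower. They include *C1qa*, *C1qb* and *C1qc*, which are also counted among the macrophage markers, and *Cr2*, counted among the marginal zone markers. By p the list was led by *Cd300lf* (an inhibitory receptor of myeloid cells, 1.52, adjusted p = 0.000867 from edgeR) and *Hfe* (an MHC-like protein of iron handling, 2.37, adjusted p = 0.00175). *Siglecg* (-0.34, adjusted p = 0.0122) and *Cd72* (-0.29, adjusted p = 0.0206), ITIM receptors of B cells like *Fcgr2b*, were lower. Neither was called without either MIZ-1WT library or with pan-B cell scaling (-0.15 and -0.09). Without MIZ-1WT replicate 1, 5 genes of the list were called higher. Of 18 tested genes of phagocytosis and the NADPH oxidase, 6 were called higher and 3 lower (median 0.02). *Myo10* (1.43, adjusted p = 0.000867 from edgeR) and *Cybb* (the catalytic oxidase subunit, 0.56, adjusted p = 0.00161) were higher, and *Prkcd* (-0.53, adjusted p = 0.00238) and *Ncf4* (an oxidase subunit of the cytosol, -0.39, adjusted p = 0.00405) lower. Without MIZ-1△POZ replicate 2, 5 genes of this list were called lower.

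**Figure D5:**
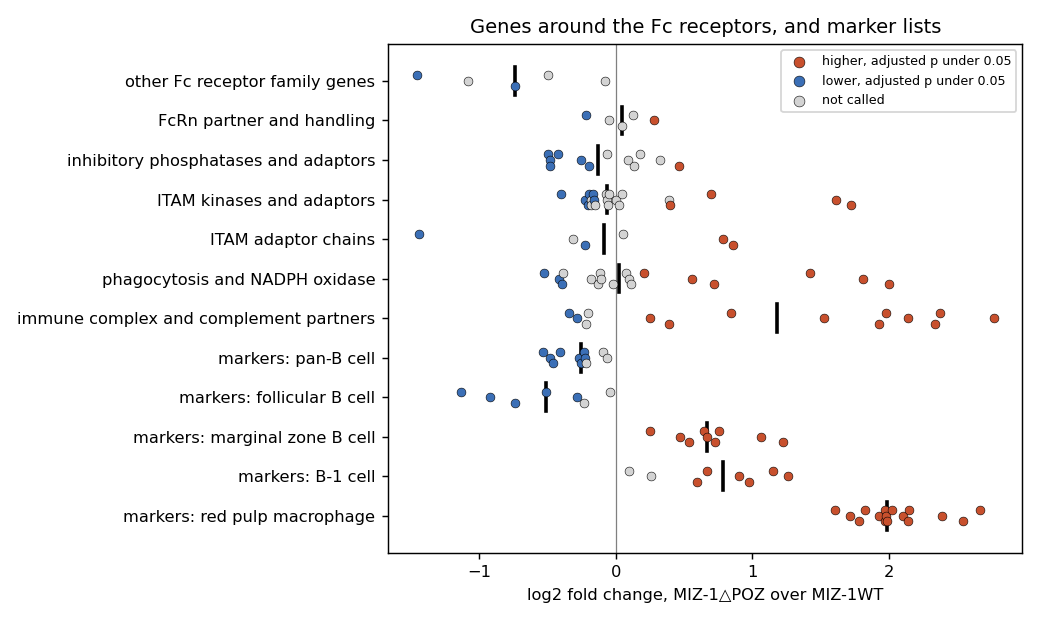
Log2 fold changes, MIZ-1△POZ over MIZ-1WT, of the tested genes in the pathway lists and in 5 marker lists. Each point is a gene, coloured by its call at an adjusted p of 0.05, and black bars are list medians. Points spread around 0 for most signaling lists and lie at 1.60 or above for the red pulp macrophage markers.

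Within 100 kb of the members, 87 other genes are annotated and 46 were tested. Of these 46, 7 were called higher and 15 lower, where 21.1% of all tested genes were called higher and 18.9% lower. The median log2 fold change of the 46 was -0.08. The strongest by p included *Gm20632* (-1.45), *Pigr* next to *Fcmr* (-1.46), *Scaf1* (-0.53), *Hist2h3b* near *Fcgr1* (0.83) and *Hist2h2be* (-0.83). They also included *Usp21* (-0.50), *Hist2h3c2* (-1.51), *Hist2h4* (-0.45), *Irf3* near *Fcgrt* (-0.25) and *Prr12* (-0.82). *Cd5l*, a macrophage protein counted among the red pulp markers whose gene lies beside *Fcrl1*, was singled out after its values were seen. It had 1390 and 1929 counts in MIZ-1WT and 10043 and 4110 in MIZ-1△POZ (1.97, adjusted p = 0.0129 from the edgeR QL test), the order of libraries of the myeloid members and not of *Fcrl1*. Without MIZ-1WT replicate 1 its adjusted p was 0.0832 from edgeR. Histone genes of a cluster share sequence, so their counts are uncertain.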

How the data were processed

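Per the sources, paired-end 50-cycle reads of rRNA-depleted stranded libraries were trimmed with Trimmomatic, mapped to mm10 with TopHat2 (version 2.1.0 in the submitters' processing notes) and counted on Ensembl genes with HTSeq. The authors deposited these raw counts for 4 libraries. The strand setting and Ensembl release are not given in the sources used here, so overlapping genes are uncertain. Of 41214 genes, 40254 had a symbol in GENCODE vM21, which also gave positions and exon lengths. Summary lines were left out. Relative to gene counts and these lines together, reads without a unique alignment made up 42.8% to 44.2%.

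Counts were fitted with edgeR 4.0.16 in R 4.3.3 (TMM, at least 10 counts in at least 2 libraries, quasi-likelihood test, Benjamini-Hochberg adjustment over 14554 genes, threshold 0.05). Intervals are 95% intervals of the fit. The procedure was tested on simulated data. Alternatives were DESeq2 1.42.0, its size factors, other filters, immunoglobulin genes removed, a replicate block and each library left out. Scaling to pan-B cell markers was chosen after seeing the data. Members and lists were chosen with earlier results of these data known. Named genes were the members, other Fc receptor genes, up to 2 per direction by p in each pathway list, 3 per marker list by mean CPM, and called neighbours within 100 kb, up to 10 by p. Lists of cell types beside the B cell subsets and macrophages are given by counts. A gene that meets the rule is not reported here.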

Additional observations from a re-analysis of the deposited data

How the results depend on the processing

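No member changed direction under any of the 11 alternatives. Over the planned ones, 93 of 100 member results kept their call and 7 lost it, all 7 without a MIZ-1WT library. The 4 members called lower became 1 with library sizes scaled to the pan-B cell markers, and the same held for the B cell members called lower. Leaving out each library gave from 1 to 4 members called lower, again the same among the B cell members, and the lone library of a genotype is then assumed to vary like the others. Over all genes, calls fell from 3076 higher and 2746 lower to 1374 and 848 without MIZ-1WT replicate 1 and to 1728 and 1115 without replicate 2. Scaling to pan-B cell markers gave 5038 and 934. Same-numbered libraries did not deviate together over the tested genes (correlation -0.0861). With 2 libraries per genotype this cannot tell whether same-numbered libraries were handled together. With the replicate block *Fcgr2b* was at -0.33 (adjusted p = 0.0119 from edgeR), no member's call changed, and 2633 genes were called higher and 2099 lower. The block left 2 of the ITAM kinases and adaptors called lower instead of 6, and *Rab11a* and *Inpp5d* not called. Of 506 list counts 436 stayed within 1.5 times and 70 moved. With 2 libraries per genotype, precision is limited by their spread and, for genes with few counts, also by depth.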
